A study of Rattus norvegicus with 12 samples.

Results

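The genes described here are those of the rat count table whose symbol begins with Snrp, Sf3a, Sf3b, Prpf, U2af or Lsm followed by a letter or a number, with LOC symbols left out. The rule found 55 of the 33294 symbols in the table, and all 55 had enough counts to be tested in every comparison. Most encode proteins of the core spliceosome. Lsmem1 and Lsmem2 match by name only, since they encode leucine-rich single-pass membrane proteins. Snrpd2l and Snrpel1 are annotated in RefSeq (GRCr8) as pseudogenes, and Snrpep2 had no match there. Lsm1, Lsm10, Lsm11, Lsm12, Lsm14a and Lsm14b encode LSm-domain proteins that act outside the spliceosome. The remaining 44 symbols are annotated spliceosome proteins.

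The data were poly(A) RNA-Seq of PAC1 cells, a single rat pulmonary artery smooth muscle cell line, with 3 libraries in each of 4 groups. D1 and P were cells given a control siRNA, called C2, in the more differentiated PAC1-D state (passaged weekly) and in the more proliferative PAC1-P state (passaged more often and at a higher dilution). RBPMS KD1 and MBNL KD were PAC1-D cells given an siRNA against RBPMS, or siRNAs against both MBNL1 and MBNL2. All 4 groups thus carry a transfected siRNA, and all were grown in medium with foetal bovine serum. Per the sample labels they received 90 pmol of siRNA, a second dose after 24 h, and were assessed 48 h after that, whereas the study's methods give a longer schedule.

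RBPMS and the MBNL proteins bind RNA and regulate alternative splicing, and RBPMS is enriched in smooth muscle. The spliceosome, in contrast, is the machinery that every cell uses to remove introns. Its U1, U2, U4 and U5 snRNPs each carry a ring of Sm proteins (SmB, D1, D2, D3, E, F and G) around a small nuclear RNA, and U6 carries the related LSm2 to LSm8 ring. U1 marks the 5′ splice site, U2AF reads the polypyrimidine tract and the 3′ splice site, and the SF3a and SF3b complexes of U2 hold the branch point. The Prpf proteins, named after yeast pre-mRNA processing genes, join U4/U6.U5 into a tri-snRNP, with PRPF8 at the catalytic centre, or act at other steps. Whether the mRNAs of this machinery changed between the cell states, or when a regulator was depleted, is the question the comparisons address.

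The sense strands of the siRNAs that define the groups are shown 5′ to 3′ as the study lists them, in lower case throughout because no position is singled out.
C2 control: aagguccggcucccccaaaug
RBPMS: ggcggcaaagccgagaaggcgaaca
MBNL1: cacggaauguaaauuugcauu
MBNL2: gaagaguaauugccugcuuuu

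The labels were checked on the targeted genes. Counts below, unless called raw, are read counts scaled by TMM factors to a common library size, called scaled counts. The mean of Rbpms in RBPMS KD1 was 25.0% of that in D1, and the means of Mbnl1 and Mbnl2 in MBNL KD were 23.8% and 29.6% of those in D1. In P, Rbpms was at 6.32% of D1, so that the P libraries also hold little Rbpms RNA. The log2 fold changes of the 3 targets in P ran from −3.99 (Rbpms) to 0.27. Their median was −0.94, so 1 of Mbnl1 and Mbnl2 was also lower in P than in D1. Total raw counts per library lay between 80842635 and 90771289, the lowest being MBNL KD replicate 3. Smooth muscle markers were abundant in D1 (8 genes, 870325 to 914829 scaled counts summed) and low in P (18716 to 19889). Their sum was also below D1 in RBPMS KD1 (433753 to 449208) and in MBNL KD (694966 to 705329). The defining markers of other lineages were close to 0 in D1. There the highest single raw count was 42 for 5 endothelial, 72 for 5 leukocyte and 6 for 4 epithelial genes. The summed endothelial markers reached 482 to 600 in P, against 66.2 to 72.4 in D1. They were at 161.9 to 163.3 in RBPMS KD1 and 83.2 to 125.6 in MBNL KD. In these bulk samples fewer cells of one kind and less RNA per cell cannot be told apart.

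Most members differed between P and D1, but by small amounts. In edgeR's quasi-likelihood test, 29 of the 55 members were higher in P and 16 were lower at an adjusted p under 0.05, which is 81.8% of them. Among all 16814 genes tested, 77.9% passed the same threshold, 40.4% upwards and 37.6% downwards, so that the share of members called lay near the background. The median log2 fold change of the members was 0.12, beside 0.02 for all genes. Their median size, regardless of sign, was 0.23, beside 0.46 for all genes. Only 2 members also passed a log2 fold change of 1 (Snrpn up, Lsmem2 down), or 3.64% of them, beside 27.6% of all genes tested (16.4% up, 11.2% down). As a share of raw total counts, without TMM scaling, the members made up 0.356% ± 0.0015 in D1 and 0.430% ± 0.0047 in P. The share was 0.337% ± 0.0019 in RBPMS KD1 and 0.342% ± 0.0017 in MBNL KD (SD, n = 3). Such shares also depend on the counts of all other genes.

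Depletion of either regulator moved fewer members, and more of them down than up. In RBPMS KD1 10 were higher and 21 lower than in D1, and 0 passed the fold threshold as well by edgeR, by DESeq2 or by limma on the deposited normalised values, and the largest edgeR change of any member was 0.74 in size. The 31 called members were 56.4%, beside 59.1% of all 15904 genes tested (29.5% in each direction), and 4.68% of all genes passed both thresholds (3.06% up, 1.62% down). In MBNL KD 14 were higher and 23 lower, and 2 passed both thresholds (Lsmem1 and Lsmem2, both up). These 37 called members were 67.3%, beside 67.5% of all 16053 genes (33.8% up, 33.7% down), with 10.2% of all genes past both thresholds (6.1% up, 4.14% down). The excess of falls in MBNL KD depended on the scaling, since quantile normalization gave 21 higher and 17 lower.

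**Figure D1:**
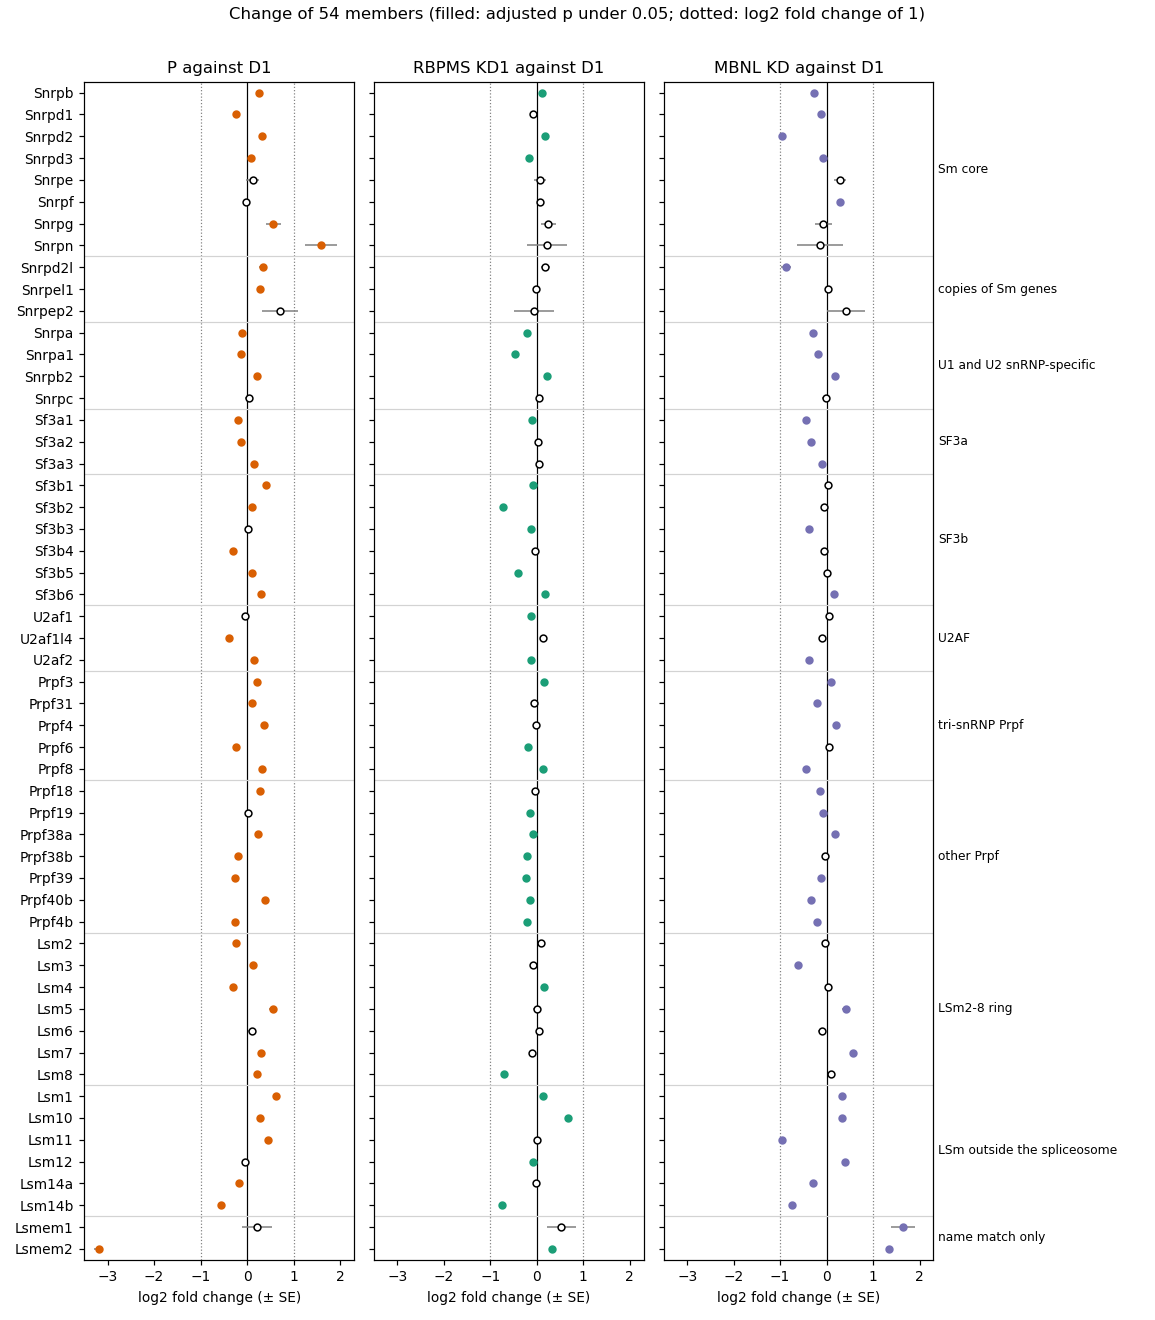
Log2 fold change (± SE, horizontal axis) of 54 of the 55 members against D1 in P, RBPMS KD1 and MBNL KD, grouped by role; filled points passed an adjusted p under 0.05 and dotted lines mark a log2 fold change of 1. Apart from Snrpn and the name matches Lsmem1 and Lsmem2, every member drawn lies between the dotted lines in all 3 panels.

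Across the comparisons the members' changes were bounded. In P 48 of 55 members changed by less than 0.5 on the log2 scale (87.3%), beside 52.6% of all genes tested. In RBPMS KD1 the count was 50 (90.9%, beside 79.0%), and in MBNL KD it was 47 (85.5%, beside 69.4%). The members also had more scaled counts, not corrected for gene length, than most genes, with a median of 3406 in D1 beside 1300 for all genes tested in P against D1. The part of count depth in the sizes of the changes was not tested.

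**Figure D2:**
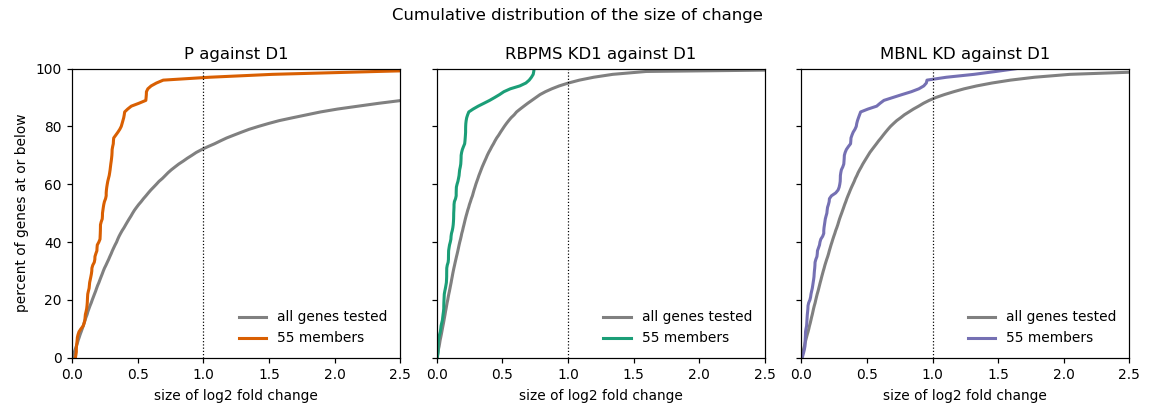
Percent of genes (vertical axis) whose log2 fold change against D1 is at or below a given size (horizontal axis, drawn to 2.5), for the 55 members and for all genes tested. The members' median sizes were 0.23, 0.13 and 0.19 in P, RBPMS KD1 and MBNL KD, beside 0.46, 0.23 and 0.31 for all genes.

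Among the 8 Sm core genes, 5 were higher and 1 lower in P, 2 higher and 1 lower in RBPMS KD1, and 1 higher and 4 lower in MBNL KD. The shares called were 75.0%, 37.5% and 62.5%, beside 77.9%, 59.1% and 67.5% of all genes. Under quantile normalization the P count became 4 higher and 2 lower, and the MBNL KD count 1 higher and 2 lower. In MBNL KD the largest change of the 8 was that of Snrpd2, which encodes SmD2. Its scaled counts were 4499, 4369 and 4589 in D1 and 2429, 2279 and 2249 in MBNL KD. They were 5548, 5416 and 5809 in P, and 5106, 5239 and 4928 in RBPMS KD1. The MBNL KD libraries lay below every other library, and the P and RBPMS KD1 libraries lay above every D1 library. The log2 fold change in MBNL KD was −0.95 ± 0.038 (SE, edgeR adjusted p = 2.13e-19), in P 0.31 ± 0.033 (adjusted p = 3.02e-10) and in RBPMS KD1 0.18 ± 0.034 (adjusted p = 2.98e-05). These 3 comparisons share the D1 libraries.

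The other Sm core genes had smaller changes in MBNL KD. In MBNL KD Snrpb fell by 0.27 on the log2 scale (adjusted p = 1.13e-11) and Snrpd1 by 0.12 (adjusted p = 0.0113), while Snrpf, encoding SmF, rose by 0.30 (adjusted p = 9.02e-09). Snrpd3 had a log2 fold change of −0.08 there (adjusted p = 0.0126), which became 0.0038 under quantile normalization. The Sm core mRNAs thus moved in different directions in the same cells. In P Snrpb rose by 0.26 and Snrpd1 fell by 0.23. Snrpg, encoding SmG, had low raw counts under this symbol (99 to 102 in D1 and 144 to 171 in P). Its log2 fold change in P was 0.56 ± 0.16 (adjusted p = 0.00228), but 0.10 after quantile normalization, where it did not pass.

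**Figure D3:**
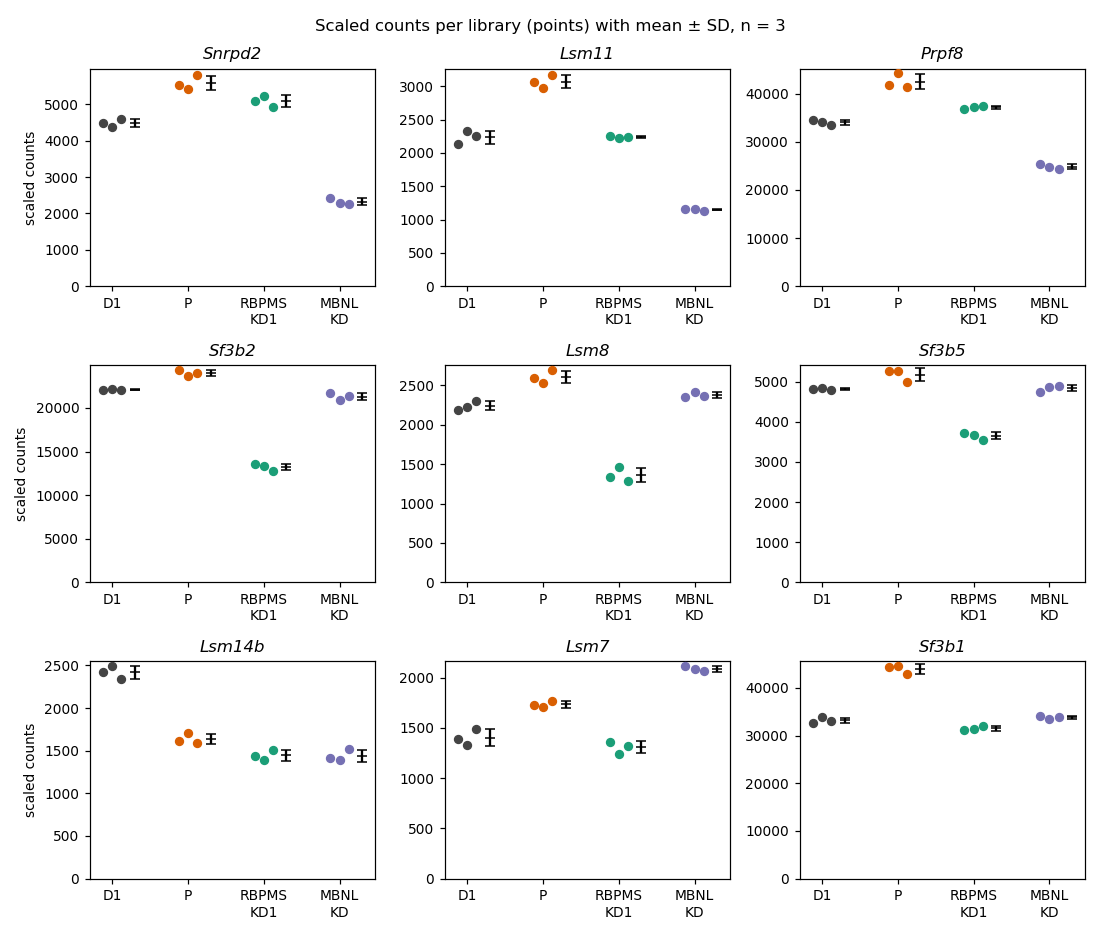
Scaled counts (vertical axes, from 0) of 9 members in each of the 12 libraries, as points, with the mean ± SD of each group (n = 3) beside them. Snrpd2, Lsm11 and Prpf8 are lowest in MBNL KD, Sf3b2, Lsm8 and Sf3b5 are lowest in RBPMS KD1, Lsm14b is highest in D1, Lsm7 is highest in MBNL KD and Sf3b1 is highest in P.

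Snrpn, a paralog of Snrpb whose protein SmN can replace SmB and is best known from neurons, is expressed from an imprinted locus shared with Snurf. It had 12 to 17 raw counts in D1, 43 to 51 in P, 9 to 26 in RBPMS KD1 and 4 to 23 in MBNL KD. The P libraries lay above all others, and the knockdown libraries overlapped D1. The log2 fold change in P was 1.60 ± 0.34 (adjusted p = 8.59e-05), and 0.97 after quantile normalization. Of the summed scaled counts of Snrpb and Snrpn, Snrpn made up 0.326% ± 0.027 in P and 0.128% ± 0.020 in D1 (SD, n = 3), so that Snrpb held nearly all of them in both states. Reads of Snrpn and of the overlapping Snurf could not be separated here, because the counting settings are not stated.

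The table also lists copies of Snrpe and Snrpd2 under their own symbols. Of the counts of Snrpe, Snrpel1 and Snrpep2 together, the pseudogene Snrpel1 took between 93.0% and 95.5% in every library, and Snrpe itself between 3.95% and 6.36%. Of Snrpd2 and Snrpd2l together, Snrpd2l took between 7.43% and 9.03%. Near-identical copies may share reads, which was not tested, so the single symbols are uncertain. Summed over the copies, SmE counts were 3825 ± 168 in D1 and 4614 ± 136 in P, a log2 fold change of 0.27 ± 0.036 (edgeR adjusted p = 5.59e-08), although Snrpe alone did not pass (0.12, adjusted p = 0.458) and was at −0.34 after quantile normalization (adjusted p = 0.0369). The summed SmE counts did not pass in RBPMS KD1 (−0.0058, adjusted p = 0.910) or in MBNL KD (0.055, adjusted p = 0.181). For SmD2 the sum changed little beside the gene itself. It fell by 0.94 in MBNL KD (adjusted p = 1.08e-19), and Snrpd2l alone by 0.88 ± 0.10 (adjusted p = 1.31e-08). Snrpd2l was 361, 400 and 422 in D1, 506, 502 and 499 in P, 465, 476 and 400 in RBPMS KD1, and 217, 202 and 223 in MBNL KD, where it lay below every other library.

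**Figure D4:**
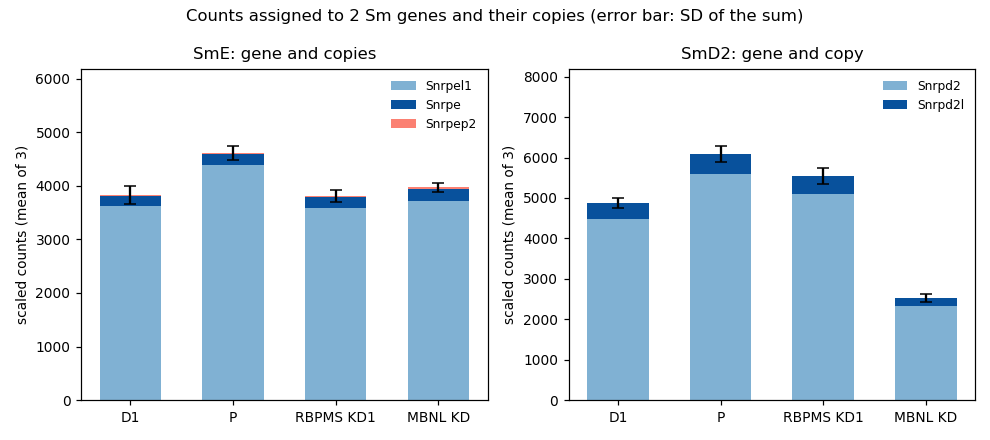
Stacked mean scaled counts (vertical axis, n = 3) of the SmE gene and its copies (left) and of the SmD2 gene and its copy (right) in each group; the error bar is the SD of the sum. Snrpel1 makes up nearly all of the SmE counts in each group, and the SmD2 sum is lower in MBNL KD (2533 ± 98) than in D1 (4880 ± 122).

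The proteins specific to U1 and U2 snRNPs are SNRPA and SNRPC (U1), and SNRPA1 and SNRPB2 (U2). Snrpa1 was 3012, 2983 and 2914 in D1 and 2183, 2148 and 2097 in RBPMS KD1, with no overlap. It fell by 0.47 ± 0.040 on the log2 scale (adjusted p = 4.22e-11), and by 0.19 in MBNL KD and 0.13 in P. Snrpb2, whose protein binds U2 snRNA together with SNRPA1, moved the other way in all 3 comparisons with D1. It was 2857, 3005 and 3037 in D1, 3572, 3290 and 3474 in P, 3260, 3582 and 3459 in RBPMS KD1, and 3356, 3435 and 3295 in MBNL KD, so that every D1 library lay below all others. It rose by 0.21 ± 0.039 in P (adjusted p = 1.14e-05), by 0.21 ± 0.040 in RBPMS KD1 (adjusted p = 4.53e-05) and by 0.18 ± 0.037 in MBNL KD (adjusted p = 8.57e-05). Snrpa fell by 0.22 in RBPMS KD1 (adjusted p = 9.01e-05) and by 0.30 in MBNL KD (adjusted p = 7.02e-07), and its fall of 0.11 in P (adjusted p = 0.0158) did not pass under 5 of 15 alternatives at the same threshold. Snrpc lay between 544 and 641 scaled counts over the 12 libraries and passed in none of the 3 comparisons, with values of 0.04, 0.05 and −0.02. After quantile normalization its value in P was −0.15 (adjusted p = 0.0422), so its direction in P depended on the scaling.

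All 3 SF3a genes fell in MBNL KD, as did 33.7% of all genes. Sf3a1 fell by 0.44 ± 0.028 (adjusted p = 1.95e-14), from 8031, 8125 and 8056 scaled counts in D1 to 6145, 5965 and 5743, and Sf3a2 by 0.34 ± 0.040 (adjusted p = 1.02e-08). Sf3a3 fell by 0.10 (adjusted p = 0.0202), a call lost after quantile normalization, which left 2 of 3 genes lower. In RBPMS KD1 Sf3a1 alone passed (−0.11, adjusted p = 0.00207).

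Of the 6 SF3b genes 4 fell and 1 rose in RBPMS KD1, and 1 fell and 1 rose in MBNL KD. These are 83.3% and 33.3% called, beside 59.1% and 67.5% of all genes. Both counts depended on the scaling. After quantile normalization 3 fell and 1 rose in RBPMS KD1, where Sf3b1 no longer passed, and 1 fell and 3 rose in MBNL KD. Sf3b2 was 22037, 22133 and 22092 in D1 and 13538, 13355 and 12829 in RBPMS KD1, against 21712, 20883 and 21317 in MBNL KD and 24353, 23626 and 24040 in P. The RBPMS KD1 libraries lay far below all others. The log2 fold change was −0.74 ± 0.026 (adjusted p = 1.53e-19), while MBNL KD gave −0.05 (adjusted p = 0.0715). Sf3b5, a small subunit, fell by 0.40 ± 0.034 in RBPMS KD1 (adjusted p = 3.37e-11), from 4822, 4834 and 4797 to 3720, 3679 and 3556. Sf3b3 fell by 0.38 in MBNL KD (adjusted p = 1.56e-14) and by 0.12 in RBPMS KD1 (adjusted p = 1.42e-04). Sf3b1, the subunit that surrounds the branch-point adenosine and the one mutated in blood cancers, was 32751, 33813 and 33115 in D1 and 44458, 44608 and 42886 in P. It rose by 0.40 ± 0.024 in P (adjusted p = 2.92e-16) and fell by 0.07 in RBPMS KD1 (adjusted p = 0.0104). Sf3b4 fell by 0.29 in P (adjusted p = 6.70e-10) and passed in neither knockdown. The gene body of Sf3b2 overlaps Gal3st3 in the annotation, which is one of 25 members that overlap another gene.

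U2af2, the subunit that binds the polypyrimidine tract, was 17839, 16758 and 17518 in D1 and 13837, 13375 and 12863 in MBNL KD. It fell by 0.38 ± 0.027 there (adjusted p = 3.58e-13) and by 0.13 in RBPMS KD1 (adjusted p = 2.82e-04), and rose by 0.15 in P (adjusted p = 4.20e-06). U2af1, the subunit that contacts the AG of the 3′ splice site, had a log2 fold change of −0.13 in RBPMS KD1 (adjusted p = 0.0147), where the libraries were at 6161, 5203 and 5173, and with DESeq2 the adjusted p was 0.203. Its paralog U2af1l4 was 1287, 1490 and 1483 in D1 and 1104, 1105 and 1070 in P, a fall of 0.38 ± 0.058 (adjusted p = 4.72e-07). Of the counts of the pair, U2af1l4 made up 19.1% ± 1.5 in D1, 15.7% ± 0.7 in P, 22.0% ± 2.1 in RBPMS KD1 and 17.7% ± 1.4 in MBNL KD (SD, n = 3).

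The 5 Prpf genes of the tri-snRNP (Prpf3, Prpf4, Prpf6, Prpf8 and Prpf31) rose in P in 4 cases and fell in 1, beside 40.4% of all genes higher and 37.6% lower. Prpf8 was 34563, 34136 and 33536 in D1, 41942, 44268 and 41350 in P, 36921, 37266 and 37380 in RBPMS KD1, and 25379, 24766 and 24450 in MBNL KD. The 4 groups did not overlap. It rose by 0.31 ± 0.026 in P (adjusted p = 7.44e-13) and by 0.13 ± 0.024 in RBPMS KD1 (adjusted p = 4.07e-05), and fell by 0.45 ± 0.025 in MBNL KD (adjusted p = 8.17e-16). Prpf4 rose in P (0.37, adjusted p = 7.21e-10) and in MBNL KD (0.21, adjusted p = 5.89e-05). Prpf6, a bridging protein of the tri-snRNP, fell in P (−0.23, adjusted p = 4.80e-09) and in RBPMS KD1 (−0.19, adjusted p = 7.19e-07).

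Of the 8 other Prpf genes, 7 fell in RBPMS KD1 (87.5%, beside 29.5% of all genes) and the remaining one, Prpf18, did not pass (−0.04, adjusted p = 0.411). Their log2 fold changes were small, from −0.09 (Prpf38a) to −0.23 (Prpf39), and after quantile normalization 6 of the 8 passed. In MBNL KD 2 rose and 5 fell (beside 33.8% and 33.7% of all genes), which became 2 and 2 after quantile normalization. Prpf4b, a kinase, was lower in all 3 groups than in D1, by 0.26 in P, 0.22 in RBPMS KD1 and 0.21 in MBNL KD. Prpf38b made up 68.5% ± 0.4 of the Prpf38a and Prpf38b counts in D1, 61.7% ± 0.3 in P, 66.5% ± 1.0 in RBPMS KD1 and 65.4% ± 0.4 in MBNL KD (SD, n = 3), and in all 3 groups every library lay below the D1 libraries. In P Prpf38a rose by 0.24 (adjusted p = 1.95e-07) and Prpf38b fell by 0.19 (adjusted p = 7.50e-07).

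In the LSm2 to LSm8 ring, which binds the 3′ end of U6, each knockdown lowered a different subunit. Lsm3 was 2212, 1873 and 2255 in D1 and 1380, 1272 and 1468 in MBNL KD, a fall of 0.62 ± 0.061 (adjusted p = 2.35e-10). In RBPMS KD1 it was 2088, 2060 and 1876, within the D1 range (−0.07, adjusted p = 0.284). Lsm8, the subunit that distinguishes the nuclear ring from the cytoplasmic LSm1 to LSm7 ring, showed the opposite. It was 2188, 2224 and 2300 in D1, 1340, 1464 and 1290 in RBPMS KD1, and 2344, 2419 and 2369 in MBNL KD. It fell by 0.71 ± 0.050 in RBPMS KD1 (adjusted p = 7.01e-13), and its value of 0.09 in MBNL KD did not pass (adjusted p = 0.0591). After quantile normalization that value was 0.16 and passed (adjusted p = 0.00124), as did Lsm4 (0.11, adjusted p = 0.0041). The ring thus went from 2 higher and 1 lower with TMM to 4 and 1 in MBNL KD. With TMM 42.9% of the ring was called in MBNL KD and 28.6% in RBPMS KD1, beside 67.5% and 59.1% of all genes.

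Lsm5 and Lsm7 rose in both P and MBNL KD. Lsm7 was 1388, 1326 and 1493 in D1, 1730, 1705 and 1772 in P, and 2121, 2083 and 2063 in MBNL KD. Its log2 fold change was 0.30 ± 0.051 in P (adjusted p = 2.80e-06) and 0.58 ± 0.050 in MBNL KD (adjusted p = 1.65e-11). Lsm5 was 499, 634 and 667 in D1 and 897, 838 and 929 in P, a rise of 0.56 ± 0.080 (adjusted p = 1.53e-07), and it rose by 0.42 ± 0.082 in MBNL KD (adjusted p = 4.28e-05). Lsm2 and Lsm4 fell in P, by 0.24 and 0.30. Lsm6 did not pass in any of the 3 comparisons. The mRNAs of the ring, which holds a single copy of each subunit, thus moved in different directions.

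The LSm proteins outside the spliceosome held several of the larger changes. Lsm1, which replaces LSm8 in the cytoplasmic ring that activates mRNA decapping, was 1623, 1641 and 1611 in D1 and 2509, 2399 and 2570 in P. It rose by 0.61 ± 0.044 in P (adjusted p = 2.31e-14), by 0.32 in MBNL KD (adjusted p = 2.97e-07) and by 0.13 in RBPMS KD1 (adjusted p = 0.0172). Lsm10 and Lsm11 encode the pair of subunits that are specific to the U7 snRNP, which processes the 3′ ends of replication-dependent histone mRNAs. Lsm11 was 2136, 2332 and 2248 in D1, 3067, 2978 and 3166 in P, 2254, 2229 and 2239 in RBPMS KD1, and 1156, 1159 and 1134 in MBNL KD. It rose by 0.45 ± 0.041 in P (adjusted p = 1.12e-11) and fell by 0.96 ± 0.049 in MBNL KD (adjusted p = 1.08e-16), the largest fall of any member there. Lsm10 rose in all 3 groups, by 0.28 in P, 0.33 in MBNL KD and 0.66 ± 0.055 in RBPMS KD1 (adjusted p = 2.33e-11), where it was 1740, 1839 and 1759 against 1030, 1177 and 1164 in D1. The U7 partners thus moved apart in MBNL KD. Lsm12 rose by 0.39 ± 0.025 in MBNL KD (adjusted p = 1.15e-14), and its value of −0.09 in RBPMS KD1 passed by a small margin (adjusted p = 0.0137) and did not pass after quantile normalization (adjusted p = 0.0634).

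Lsm14b encodes a cytoplasmic RNA-binding protein of processing bodies, as does its paralog Lsm14a. Lsm14b was 2422, 2491 and 2339 in D1, and lower in all the other libraries: 1616, 1709 and 1593 in P, 1436, 1386 and 1511 in RBPMS KD1, and 1411, 1391 and 1514 in MBNL KD. It fell by 0.57 ± 0.045 in P (adjusted p = 3.83e-13), by 0.74 ± 0.047 in RBPMS KD1 (adjusted p = 7.39e-14) and by 0.75 ± 0.048 in MBNL KD (adjusted p = 1.64e-14). All 3 values rest on the same D1 libraries, and leaving out each D1 or treated library in turn gave log2 fold changes between −0.79 and −0.54. Lsm14a fell by 0.17 in P and by 0.30 in MBNL KD, and gave −0.03 in RBPMS KD1 (adjusted p = 0.412). Of the counts of the pair, Lsm14b made up 19.5% ± 0.2 in D1, 15.6% ± 0.4 in P, 12.9% ± 0.4 in RBPMS KD1 and 15.1% ± 0.7 in MBNL KD (SD, n = 3).

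The name matches Lsmem1 and Lsmem2 carried 3 of the 4 calls past both thresholds in the comparisons with D1. Lsmem2 was 821, 819 and 799 in D1, 88.7, 91.0 and 88.2 in P, 1024, 1036 and 974 in RBPMS KD1, and 2090, 2080 and 2028 in MBNL KD. The groups did not overlap. It fell by 3.19 ± 0.099 in P (adjusted p = 1.53e-24) and rose by 1.35 ± 0.052 in MBNL KD (adjusted p = 8.42e-20) and by 0.32 ± 0.061 in RBPMS KD1 (adjusted p = 5.02e-05). The gene overlaps Ifrd2. Lsmem1 had few raw counts, 24 to 28 in D1 and 66 to 89 in MBNL KD. Its rise was 1.64 ± 0.26 (adjusted p = 2.09e-06), and 0.83 with limma on the deposited normalised values.

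Set against each other directly, the knockdowns differed in 39 of the 55 members (70.9%, beside 69.5% of all 16111 genes tested). In RBPMS KD1 18 were higher than in MBNL KD (background 34.5%) and 21 lower (background 35.1%), and 4 passed both thresholds (11.9% of all genes, 6.03% up and 5.88% down). Those 4 were Snrpd2 (1.14 ± 0.038, adjusted p = 1.53e-21) and Snrpd2l (1.07 ± 0.10, adjusted p = 1.56e-10), higher in RBPMS KD1, and Lsmem1 (−1.11 ± 0.25, adjusted p = 2.59e-04) and Lsmem2 (−1.03 ± 0.052, adjusted p = 3.72e-17), lower there. Without RBPMS KD1 replicate 3, 2 members passed both thresholds. Higher in RBPMS KD1 were also Lsm11 (0.97), Prpf8 (0.59), Lsm3 (0.55), Snrpb (0.39) and the 3 SF3a genes (0.34, 0.37 and 0.16). Lower there were Lsm8 (−0.80 ± 0.051, adjusted p = 1.10e-14), Sf3b2 (−0.68 ± 0.027, adjusted p = 1.05e-19), Lsm7 (−0.67), Lsm12 (−0.48), Lsm5 (−0.41) and Sf3b5 (−0.40).

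Other members gave no difference between the knockdowns that passed. Lsm14b, low in both, differed by 0.01 (95% interval −0.096 to 0.12, adjusted p = 0.867). Prpf4b differed by 0.00022 (−0.056 to 0.056, adjusted p = 0.995) and Sf3b6 by 0.0073 (−0.090 to 0.10, adjusted p = 0.904). These intervals bound the difference and do not show that the knockdowns acted alike.

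**Figure D5:**
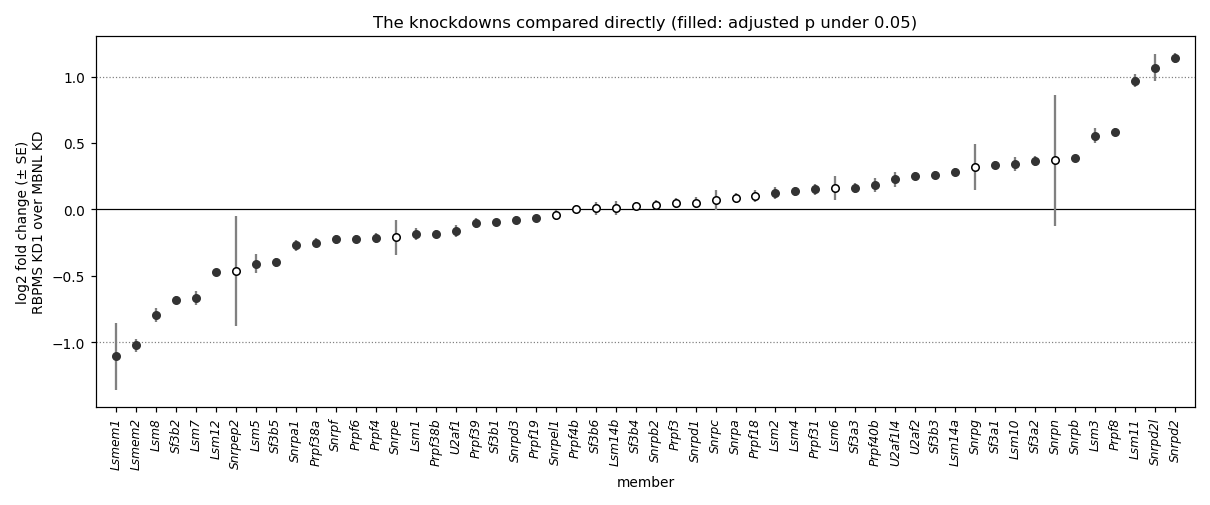
Log2 fold change (± SE, vertical axis) of RBPMS KD1 over MBNL KD for 54 of the 55 members in order of size; filled points passed an adjusted p under 0.05 and dotted lines mark 1 in either direction. Lsmem1 (−1.11) is the lowest and Snrpd2 (1.14) the highest.

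The promoters of members with large changes in one knockdown are shown with the letters of the searched motifs in capitals. The motifs, looked for on both strands, were the GC box (GGGCGG), ETS (CCGGAAGT), CRE (TGACGTCA), E2F (TTTCCCGC), the NRF1 core palindrome, E-box (CACGTG) and the TATA box (TATAAA). The windows run from 250 bases before the annotated start to 50 after it (RefSeq, GRCr8). Snrpd2 lies at chr1:87926159-87926458 (plus strand) and Lsm11 at chr10:30887184-30887483 (minus strand), and both fell most in MBNL KD. Lsm8 lies at chr4:48271878-48272177 (plus strand) and fell in RBPMS KD1.
Snrpd2: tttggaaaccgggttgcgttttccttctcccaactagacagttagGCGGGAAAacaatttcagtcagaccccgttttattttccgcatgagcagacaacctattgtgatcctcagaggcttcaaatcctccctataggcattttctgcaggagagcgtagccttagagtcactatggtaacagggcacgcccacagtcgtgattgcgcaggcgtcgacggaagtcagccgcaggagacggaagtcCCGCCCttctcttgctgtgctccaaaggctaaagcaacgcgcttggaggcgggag
Lsm11: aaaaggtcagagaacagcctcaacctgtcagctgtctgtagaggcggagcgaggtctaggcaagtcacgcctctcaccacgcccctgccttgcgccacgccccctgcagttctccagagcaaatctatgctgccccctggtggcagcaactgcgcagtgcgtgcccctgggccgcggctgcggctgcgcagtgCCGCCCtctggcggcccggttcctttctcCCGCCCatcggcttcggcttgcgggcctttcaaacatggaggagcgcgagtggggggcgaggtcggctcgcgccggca
Lsm8: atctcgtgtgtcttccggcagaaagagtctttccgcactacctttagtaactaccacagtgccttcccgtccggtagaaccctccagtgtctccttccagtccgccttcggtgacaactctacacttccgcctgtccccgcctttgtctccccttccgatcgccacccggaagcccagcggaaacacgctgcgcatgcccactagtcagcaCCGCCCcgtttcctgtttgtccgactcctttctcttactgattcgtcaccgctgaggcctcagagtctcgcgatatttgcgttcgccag

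Each of these 3 promoters holds a GC box and none holds the TATA letters. Snrpd2 also holds the E2F letters, on the reverse strand. Of the 46 members with a promoter in the table, 23 held a GC box, beside 58.1% of the 11991 promoters of tested genes. The ETS letters were in 15.2% of the member promoters (Lsm5, Prpf6, Sf3a1, Sf3a2, Sf3a3, Snrpb and Snrpe), beside 7.28% of tested genes and 4.01% of all 27457 promoters, so that all 3 SF3a genes held them. The E2F letters were in 6.52% of members beside 1.93% of tested genes, the NRF1 core in 6.52% beside 1.69%, CRE in 6.52% beside 2.85%, the E-box in 6.52% beside 8.89%, and TATA in 4.35% beside 7.89%. The median GC content was 57.5% for members and 60.0% for tested genes. These are matches of letters only, with no measurement of binding, and the counts behind the member percentages are 2 to 23 promoters.

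For 11 members another gene starts on the opposite strand within 1000 bases upstream, and 9 of these neighbours were tested. In MBNL KD both genes of 7 pairs passed, 2 pairs moving in the same direction and 5 in opposite directions. In P the counts were 4 and 4, and in RBPMS KD1 1 and 1. Of all single genes tested 67.5% passed in MBNL KD, 77.9% in P and 59.1% in RBPMS KD1, and the same count over all neighbouring pairs was not made. An opposite pair there, Snrpd3 and Gucd1, had small values (−0.08 and 0.08), and Snrpd3 was at 0.0038 after quantile normalization. The neighbour of Snrpd2, Qpctl, fell with it in MBNL KD (−0.50, adjusted p = 3.50e-11), as did the neighbour of Lsm3, the DNA repair gene Xpc (−1.17, adjusted p = 5.10e-18). Of the 5 opposite pairs, those of Lsm7 and Sf3a2 had Sppl2b at −0.64 (adjusted p = 2.63e-16) and Plekhj1 at 0.43 (adjusted p = 1.06e-08). Sf3a2 overlaps Plekhj1 and Snrpd3 overlaps Gucd1 in the annotation, so reads in the shared stretch may count for either gene, which was not tested. These 5 pairs were named after their values were seen.

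Of 67 other spliceosome genes, all tested, 33 rose and 22 fell in P (82.1% called, beside 77.9% of all genes). In RBPMS KD1 10 rose and 34 fell (65.7%, beside 59.1%), and in MBNL KD 23 rose and 27 fell (74.6%, beside 67.5%). The falls in RBPMS KD1 were 50.7% of the list, beside 29.5% of all genes. Their median log2 fold changes were 0.07, −0.11 and −0.03, and their median sizes regardless of sign were 0.20, 0.13 and 0.19, beside 0.46, 0.23 and 0.31 for all genes. In each knockdown 1 of the 67 (1.49%) passed both thresholds, beside 4.68% of all genes in RBPMS KD1 and 10.2% in MBNL KD. None did in P by edgeR, beside 27.6% of all genes. The largest movers were Zmat5 (0.93) and Txnl4a (−0.61) in P, Snrnp35 (0.51) and Ctnnbl1 (−1.03) in RBPMS KD1, and Txnl4b (0.63) and Pdcd7 (−1.01) in MBNL KD, of which Zmat5, Snrnp35 and Pdcd7 encode proteins of the minor, U12-dependent spliceosome. Ctnnbl1, which encodes a protein associated with the Prp19 complex, was at 1057, 1036 and 1150 in RBPMS KD1 against 2205, 2117 and 2306 in D1 (adjusted p = 4.84e-16). Phf5a, the SF3b subunit whose symbol does not match the rule, fell by 0.76 ± 0.036 in MBNL KD (adjusted p = 1.47e-17), from 5090, 4780 and 4992 to 3041, 2831 and 2865.

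Genes for snRNP assembly and export, 19 in all, gave 3 rises and 7 falls in P (52.6% called, beside 77.9% of all genes), 1 and 13 in RBPMS KD1 (73.7%, beside 59.1%), and 8 and 4 in MBNL KD (63.2%, beside 67.5%). The falls in RBPMS KD1 were 68.4% of the list, beside 29.5% of all genes. Ncbp2, the small subunit of the nuclear cap-binding complex, fell by 1.11 ± 0.038 in RBPMS KD1 (adjusted p = 6.52e-20) and rose by 0.54 ± 0.030 in MBNL KD (adjusted p = 1.09e-15). Wdr77, a partner of the methyltransferase that modifies Sm proteins before assembly, fell by 0.95 ± 0.033 in P (adjusted p = 3.81e-23). Smn1, the survival motor neuron gene, rose by 0.33 in P (adjusted p = 3.51e-10), and in MBNL KD Gemin4 fell by 0.36 (adjusted p = 1.97e-08).

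Of 11 proliferation markers, 7 were higher and 1 lower in P (72.7% called, beside 77.9% of all genes). In RBPMS KD1 10 were lower (90.9%, beside 29.5% of all genes), and in MBNL KD all 11 were lower (beside 33.7%). Their summed scaled counts ranged from 114469 to 116937 in D1, 137426 to 140849 in P, 93024 to 96126 in RBPMS KD1 and 74606 to 75327 in MBNL KD. In the study's own assay, EdU incorporation was higher in PAC1-P cells and after RBPMS knockdown. It reports no effect of MBNL1 and MBNL2 knockdown. These marker mRNAs are thus not a measure of proliferation in the knockdowns. The part of proliferation in the changes of the spliceosome genes was not tested.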

How the data were processed

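RNA was measured by poly(A) RNA-Seq with a directional kit in 12 libraries, 3 biological replicates in each of 4 groups, assigned by their labels. The authors subsampled reads to one depth with seqtk, aligned them with STAR 2.7.11b to mRatBN7.2, and deposited raw read counts per RefSeq gene symbol from featureCounts. Strand and mate settings of the counting are not given in the sources used here. A second deposited table gives normalised signal on a linear scale, obtained with noisyR noise removal followed by quantile normalization, and it was used in 1 alternative.

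Counts were compared in R 4.3.3 with edgeR 4.0.16: filterByExpr on the 6 libraries compared, TMM, the quasi-likelihood F test and Benjamini-Hochberg adjustment over all genes tested. A gene was called at an adjusted p under 0.05, and past both thresholds with an absolute log2 fold change above 1 as well. SEs were derived from the F statistic as |log2 fold change|/√F, with normal 95% intervals. No block was used. The p-values measure the spread between cultures of a single cell line. Alternatives were DESeq2 size factors, quantile normalization, no filter, at least 10 counts in every library, and halved counts (in case both mates were counted). Further ones were DESeq2 1.42.0, and limma 3.58.1 on log2 values of the normalised table, without a pseudocount. The rest were all 12 libraries in a single fit, a replicate block, an adjusted p under 0.01 and leaving out each library. Total counts per library exceed the number of reads that the study subsampled to. Whether both mates were counted was not tested.

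The members and the lists were chosen with earlier results of these data known. Given in full are members past both thresholds in any comparison, for each knockdown or state set against D1 the 3 members with the strongest increase and the 3 with the strongest decrease among those called, and 5 paralog pairs, except that the values of 1 member and its pair are not reported here. Other members named beside these were picked after their values were seen. RefSeq (GRCr8) symbols matched 54 of the 55 members, and its coordinates were used for promoters, neighbours and gene overlaps. The counts were made on another build, where overlaps and pseudogene status were not checked. Gene lengths were not used, so counts and shares within paralog pairs are not levels per length.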

Additional observations from a re-analysis of the deposited data

Results flagged for a closer look

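In a direct test of RBPMS KD1 against MBNL KD, 4 members differed by more than 1 on the log2 scale with an edgeR adjusted p under 0.05. Snrpd2 (1.14) and Snrpd2l (1.07) were higher in RBPMS KD1, and Lsmem1 (−1.11) and Lsmem2 (−1.03) were lower there. Snrpd2 and Snrpd2l may share reads, and Lsmem1 had between 24 and 97 scaled counts in any library. With 3 libraries per group, single libraries were not examined for being far from the rest.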

How the results depend on the processing

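The alternatives at an adjusted p of 0.05 gave 3299 member values, of which 3161 kept their side of the threshold. A further 79 lost the call, 54 gained it and 5 turned. A change of sign was counted as a turn only where the value passed in the main test or under the alternative. Values that passed in neither were counted among the 3161, whatever their sign. Those 5 were Snrpc in P (−0.15 after quantile normalization and −0.15 with limma on the deposited values), Snrpe in P (−0.34 after quantile normalization) and Snrpd3 in MBNL KD (0.0038 and 0.0039 under the same settings). The cause was not tested.

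Members past both thresholds in P numbered 1 after quantile normalization, 1 with limma, and 1 over the 44 annotated spliceosome proteins, a subset chosen after seeing the data. In MBNL KD they numbered 1 with limma and 0 over the subset, where 9 members were higher. Between the knockdowns they numbered 2 with limma and 1 over the subset. The members' median was 0.14 in P with at least 10 counts in every library, −0.062 in RBPMS KD1 over the subset, and in MBNL KD 0.0038 after quantile normalization, 0.0039 with limma and −0.071 over the subset. Between the knockdowns it was −0.025 after quantile normalization and −0.026 with limma.

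Leaving out each library in turn gave medians of 0.11 to 0.13 in P, −0.056 to −0.016 in RBPMS KD1, −0.075 to −0.043 in MBNL KD and 0.022 to 0.045 between the knockdowns. Members higher ranged over 28 to 29, 9 to 11, 14 to 15 and 18 to 20, and members lower over 14 to 16, 18 to 21, 21 to 25 and 18 to 20, in the same order. Past both thresholds were 2, 0, 2 to 3 and 2 to 4, the lowest being 2 without RBPMS KD1 replicate 3.

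Same-numbered libraries did not deviate together over all genes (correlations of −0.028 to 0.017), so no pairing by number was seen. Pairing that affects only some genes would not show in this check. With the replicate block the counts were 29 higher and 16 lower in P, 11 and 21 in RBPMS KD1, 14 and 23 in MBNL KD, and 18 and 21 between the knockdowns. The block added 1 call, U2af1l4 in RBPMS KD1 (adjusted p = 0.0394).

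Low counts, as for Snrpn, Snrpep2 and Lsmem1, limit the precision of those members.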
